A study of Mus with 5 samples.

Results

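The genes described here are the Janus kinases Jak1, Jak2, Jak3 and Tyk2, the suppressors of cytokine signalling Socs1, Socs2, Socs3 and Cish, and the PIM kinases Pim1 and Pim2. Binding of the retinoic acid receptor RARα and of the transcription factor BATF near them was read from 4 peak lists, RARα control, RARα RA, BATF control and BATF RA. A peak belonged to a gene when the authors' annotation of that peak named the gene. This gave 96 peaks for the 10 genes, of 27480 peaks in the 4 lists, with 9 in the RARα control list, 1 in RARα RA, 56 in BATF control and 30 in BATF RA. The annotation often names several genes per peak, at distances of up to 96168 bp for these genes, so distances to the gene are given for distal peaks.

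The cells were CD8 T cells from the spleen of wild-type mice, a genotype and tissue shared by all groups. They had been stimulated for 24 h through CD3 and CD28 in the presence of IL-2, rested for 24 h in IL-2 at 100 U/ml, and then kept for 1 h without retinoic acid (control) or with RA at 50 nM. The sample labels conflict with this on the cytokine, since they write IL-7 for RARα control, IL-8 for RARα RA, IL-9 for BATF control and for IgG, and IL-10 for BATF RA. They also call the cells naive. The peak lists hold no expression values, so the cell type could not be checked against its markers. In chromatin immunoprecipitation followed by sequencing (ChIP-seq), fragments of DNA held by a protein are recovered with an antibody, here anti-RARα, anti-BATF or, as background, normal rabbit IgG, and a peak is a place where fragments pile up. Each list was called on 2 pooled ChIP files against the same IgG file, which has 11410673 fragments and whose RA treatment is not stated. Depth was 22655611 fragments in RARα control, 22475060 in RARα RA, 23110180 in BATF control and 16424269 in BATF RA, so the BATF RA pool had 71.1% of the depth of BATF control.

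There was 1 list per condition. Whether the 2 pooled files are replicates or repeat runs is not stated, so replicate spread is unknown, and differences between control and RA were described without a test. Intervals on shares are Wilson 95% intervals, and those on summit heights are exact Poisson or exact conditional binomial 95% intervals. All of them cover counting error only, and they are too narrow for a summit, which is the highest point of its peak. The fold enrichment is the summit height plus 1 over the local IgG level plus 1. A list holds only places that passed the p-value cutoff, 0.001 for RARα and 1e-05 for BATF, so a gene without a peak had no listed place past that cutoff.

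Cytokine receptors of the type that bind interleukins and interferons have no enzyme activity of their own. A ligand brings the receptor-bound JAK kinases together, these phosphorylate STAT transcription factors, and the STATs move to the nucleus and switch on target genes. Socs1, Socs2, Socs3 and Cish are among those targets and feed back to dampen the signal, while the PIM kinases are STAT-induced kinases that favour survival and growth. RARα is a nuclear receptor that binds DNA with or without its ligand RA, and BATF is an AP-1 family factor of activated T cells.

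BATF peaks were assigned to all 10 genes in both conditions, whereas 48.6% of 21900 protein-coding genes had a BATF control peak and 38.3% had a BATF RA peak. RARα control peaks were assigned to 6 of the 10 genes (7.18% of protein-coding genes) and a RARα RA peak to 1, Pim1 (3.19%). When a q-value of 0.05 or less was required, the RARα control peaks of Socs1 and Jak1 and the promoter peak of Pim1 dropped out, which left 4 genes, and 2 of the 6 genes had a RARα control peak within 10 kb. The share of 7.18% is for all listed peaks at any distance, and no share of protein-coding genes under these limits is given here. The JAK genes had 22 BATF control peaks and 9 with RA, the SOCS genes 22 and 11, and the PIM genes 12 and 10. Jak1 stood highest in BATF control, with 14 peaks, a number that 0.187% of protein-coding genes reached or passed. Pim1 had 10 BATF control peaks (reached by 0.580% of genes), 9 BATF RA peaks (0.119%) and 4 RARα control peaks (0.0731%). The medians over the 10 genes were 4.50 BATF control and 2 BATF RA peaks, against 1.00 over genes with any peak in either list.

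**Figure D1:**
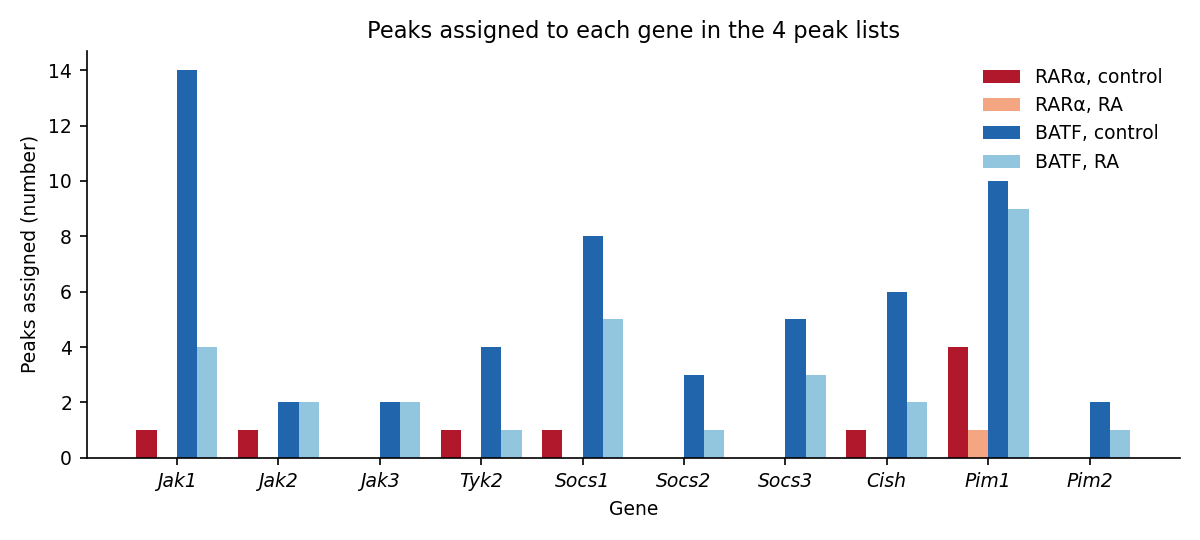
Number of peaks (vertical axis) assigned to each of the 10 genes (horizontal axis) in the 4 lists, 1 bar per list. Jak1 had the most BATF control peaks, 14 against 4 with RA, while Pim1 had 10 and 9 and was the gene with the most RARα control peaks, 4.

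Most of the BATF peaks of these genes lay away from promoters. In BATF control 19 of 56 peaks were of the promoter class (33.9%, 95% interval 22.9 to 47.0) against 58.7% of all peaks in the list, and in BATF RA 12 of 30 (40%, 24.6 to 57.7) against 64.6%. Of the 56 control peaks 25 overlapped the gene, 35 lay within 10 kb of it and 21 lay farther away. For 42 of the 56 the named gene was also the nearest protein-coding gene. The median fold enrichment was 4.65 for the genes' BATF control peaks and 5.40 for all peaks, and 4.69 and 5.29 in the RA list. Intergenic peaks of these genes were named for 4 to 11 genes each, and promoter-class peaks for 1 or 2. Assignment by name thus counts intergenic peaks for more genes, while the values over all peaks count each peak once. Whether these genes differ in this from other genes with named peaks was not tested.

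Jak1, the kinase shared by most of the interleukin and interferon receptors of T cells, had 11 of its 14 BATF control peaks within the gene. Its highest peak was of the promoter class at chr4:101264356-101265309 (mm10), with 49 fragments at the summit and a fold enrichment of 10.2 in control. The overlapping RA peak, chr4:101264681-101265324, had 28 fragments and a fold of 7.25, the highest of Jak1 in that list. Beside it, 2 weaker promoter-class control peaks, chr4:101262900-101263440 (19 fragments, fold 4.09) and chr4:101263725-101264114 (19, fold 3.95), had no separate RA peak. Within introns, BATF peaks of both conditions overlapped at chr4:101186824-101188249 in intron 4 (39 fragments and fold 9.07 in control, 21 and 4.78 with RA) and at chr4:101249873-101250496 in intron 1 (35 and 7.11, 17 and 4.87). A RARα control peak, chr4:101187437-101187684, lay inside the intron 4 peak with 16 fragments and a fold of 2.85, and no RARα RA peak was called within 5 kb. Of the remaining control peaks 5 had no RA peak within 5 kb, and 1 peak 55177 bp from Jak1, in a simple repeat, was listed with RA alone (14 fragments, fold 4.96).

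Jak2, the kinase of the receptors for growth hormone, erythropoietin and IFN-γ among others, had 2 BATF peaks in each list. The promoter-class peak spanned chr19:29250946-29253506 in control (29 fragments, fold 5.11) and chr19:29251610-29252329 with RA (18, fold 4.56). The higher peak, chr19:29391161-29391546, had 47 fragments and a fold of 6.77 in control and 38 and 8.48 with RA (chr19:29391298-29391644), but it lay 78066 bp from Jak2 and its nearest protein-coding gene was Cd274, which encodes the checkpoint ligand PD-L1. A RARα control peak at chr19:29236793-29237068, 14735 bp from Jak2 in an L2 LINE repeat, had 20 fragments and a fold of 4.03. It was the 1 RARα control peak of these genes with no BATF control peak within 5 kb, the nearest lying 13878 bp away.

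Jak3, the kinase that binds the common γ chain of the receptors for IL-2, IL-7 and IL-15, had no RARα peak. Its promoter-class BATF control peak, chr8:71676222-71677986, had 41 fragments and a fold of 6.91, the highest of Jak3. With RA there were 2 promoter-class peaks under it, chr8:71676238-71676714 (23 fragments, fold 6.86) and chr8:71677405-71677871 (14, fold 4.96). The other control peak assigned to Jak3 was 37991 bp away in Fcho1 and was weak (16 fragments, fold 4.08).

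Tyk2, the kinase used with type I interferon and IL-12 receptors, had 4 BATF control peaks and 1 with RA. Its promoter-class control peak, chr9:21130873-21131693, had 35 fragments and a fold of 3.56, over an IgG level 3.15 times the lowest in the list, and no RA peak lay within 5 kb. A distal site was marked in 3 lists. There the BATF control peak chr9:21161276-21161928 had 37 fragments and a fold of 9.38, the BATF RA peak chr9:21161272-21161647 had 13 and 4.63, and the RARα control peak chr9:21161156-21161532 had 17 and 4.64. This site is a CpG island 29763 bp from Tyk2 and 4168 bp from Pde4a, a cAMP phosphodiesterase gene, and the annotation named 11 genes for it.

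Socs1, which encodes an inhibitor that binds JAK kinases directly, had 8 BATF control peaks and 5 with RA. The highest BATF peak of all 10 genes was among them. At chr16:10843431-10844353 BATF reached 98 fragments and a fold of 14.5 in control, and at chr16:10843784-10844431 it reached 58 fragments and a fold of 11.8 with RA. A weaker RARα control peak, chr16:10843809-10844429, overlapped it with 18 fragments and a fold of 2.87. This place is 57895 bp from Socs1 and close to the end of Rmi2, a DNA repair gene 574 bp from the RARα peak, so its link to Socs1 rests on the annotation. At the gene itself the promoter-class control peak chr16:10784781-10786466 had 42 fragments (fold 5.31) and the RA peak chr16:10785346-10785630 had 21 (fold 3.64). Flanking it were 2 further promoter-class control peaks, chr16:10782998-10783656 (28 fragments, fold 4.09) and chr16:10786726-10787134 (22, fold 3.25), the latter 1190 bp from Socs1 and 801 bp from Tnp2. With RA alone a peak was listed 28971 bp from Socs1 (20 fragments, fold 6.94), nearest to Clec16a.

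Socs2, an inhibitor best known from growth hormone signalling, had BATF peaks of the promoter class alone and no RARα peak. The 3 control peaks, chr10:95414779-95415370, chr10:95415707-95415977 and chr10:95416286-95416790, had 19, 14 and 21 fragments and folds of 5.10, 3.84 and 3.11. With RA a single wide peak, chr10:95415683-95417312, had 17 fragments and a fold of 3.38.

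Socs3, the inhibitor of gp130-type cytokine receptors, likewise had no RARα peak. The promoter-class BATF peak was chr11:117967892-117969617 in control (63 fragments, fold 5.75) and chr11:117968688-117969386 with RA (35, fold 6.36, the highest of Socs3 in that list). The highest fold in control was 7.71, at chr11:117963330-117963926, a CpG island 2153 bp from the gene with 38 fragments. The overlapping RA peak there had 15 fragments and a fold of 3.48. Of the 5 control peaks 2, at 11535 and 13418 bp from the gene, had no RA peak within 5 kb.

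Cish, which encodes the STAT5-induced inhibitor CIS, had 6 BATF control peaks and 2 with RA. Both of its promoter-class control peaks, chr9:107296541-107297808 (43 fragments, fold 3.10, IgG 4.54 times the lowest level) and chr9:107298102-107299021 (20, fold 4.15), lacked an RA peak within 5 kb. The strongest place was intergenic. Over chr9:107312838-107313479, 10054 bp from Cish and nearest to it among protein-coding genes, BATF had 62 fragments and a fold of 6.22 in control and, at chr9:107312936-107313180, 43 and 6.51 with RA. RARα had its highest summit for any of the 10 genes there, 45 fragments (95% interval 32.8 to 60.2) and a fold of 4.21 at chr9:107312883-107313313 in control, and no peak within 5 kb with RA. The IgG level under this RARα peak was 3.45 times the lowest level of the list.

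Pim1 had 4 of the 9 RARα control peaks. A pair of them, chr17:29393901-29394617 (23 fragments, fold 4.41) and chr17:29395502-29395858 (26, fold 4.53), lay 96168 and 94927 bp from Pim1, nearer to Fgd2. Both overlapped BATF control peaks, of 62 fragments (fold 5.19) and 30 fragments (fold 5.10). Another, of the promoter class at chr17:29492568-29492857, was the weakest RARα peak of these genes by fold (15 fragments, 2.68), and it lay within a BATF peak. The remaining peak, chr17:29510503-29511004, lay 14392 bp from Pim1 and nearest to Tmem217, with 14 fragments and a fold of 3.86. It was the sole RARα peak of the 10 genes that was present in both lists, as chr17:29510536-29510995 with 15 fragments and a fold of 4.05 with RA, and it did not overlap a BATF peak, the nearest being 4003 bp away in control and 10898 bp away with RA.

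BATF peaks at the Pim1 gene were among the higher ones. In control, chr17:29489160-29490762 and chr17:29491263-29493526, both of the promoter class, had 55 fragments each and folds of 6.15 and 9.83, the latter the highest of Pim1. With RA each was covered by 2 peaks, chr17:29489485-29490081 (16 fragments, fold 4.38) and chr17:29490329-29490681 (23, fold 3.55) over the first, and chr17:29491804-29492134 (18, fold 3.57) and chr17:29492593-29493228 (20, fold 4.57) over the second. The highest fold of Pim1 with RA was instead at the distal place, chr17:29393699-29394635, at 8.27 with 43 fragments. The fold in control was 5.19 there, while the summit held 2.68 fragments per 1000000 of the pool in control and 2.62 with RA. The IgG level under the summit was 11.0 in BATF control and 4.32 in BATF RA. Each of these IgG levels is on the scale of its own pool, so they are not corrected for depth. They were 3.85 and 2.13 times the lowest level of their list. Pim2, a related kinase on chromosome X, had no RARα peak. Its 2 BATF control peaks, chrX:7877825-7879174 (26 fragments, fold 4.45) and chrX:7879780-7880067 (18, fold 4.86), and its RA peak, chrX:7879362-7879954 (16, fold 5.38), were all of the promoter class.

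**Figure D2:**
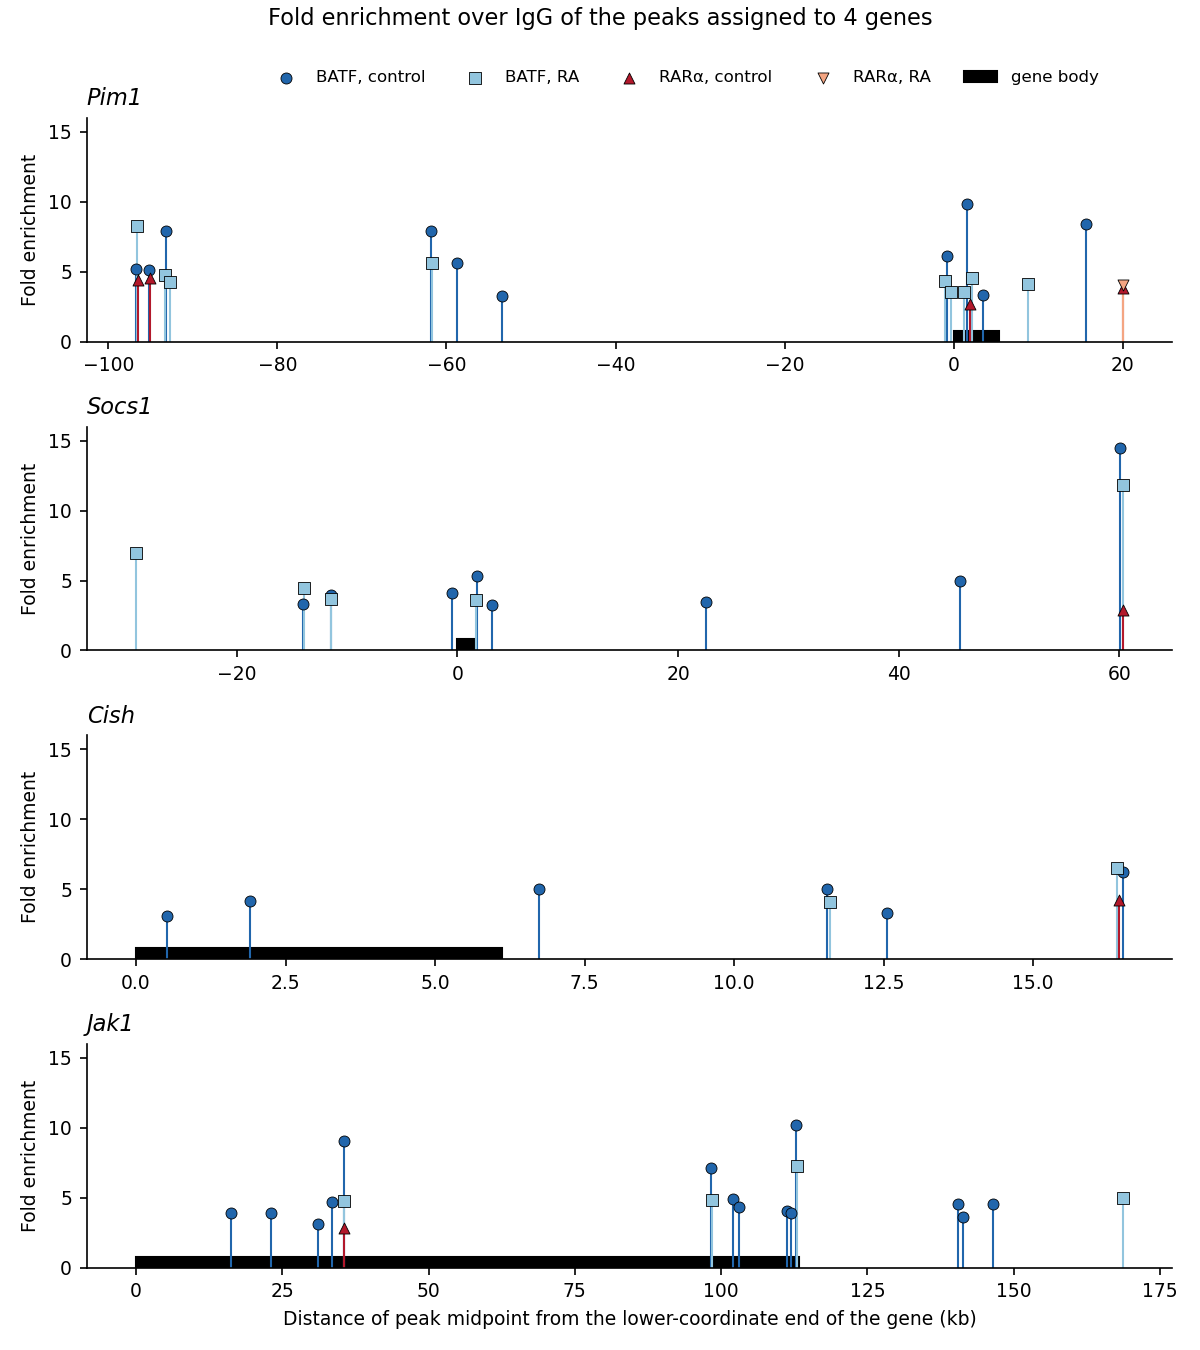
Fold enrichment over IgG (vertical axis) of every peak assigned to Pim1, Socs1, Cish and Jak1, by distance of its midpoint from the lower-coordinate end of the gene in kb (horizontal axis), with 1 symbol per list and the gene body as a black bar. RARα control peaks stood on BATF peaks at Socs1, Cish and Jak1 and at 3 of the 4 Pim1 peaks, and the tallest BATF peak, with a fold of 14.5 in control, lay 57895 bp from Socs1.

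RARα and BATF were compared next, at these genes and within each condition. Of the 9 RARα control peaks 8 had a BATF control peak within 5 kb, against 61.9% of all RARα control peaks, and 7 overlapped one. The 1 RARα RA peak had no BATF RA peak within 5 kb, and 16.4% of all RARα RA peaks had one. All 7 RARα control peaks that overlapped a BATF control peak were without a RARα RA peak within 5 kb, and all 7 had a BATF RA peak within 5 kb, overlapping in 6. Among all RARα control peaks of this kind (no RARα RA peak, a BATF control peak within 5 kb), 82.8% of 647 still had a BATF RA peak.

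Across the 10 genes 1 of the 9 RARα control peaks had a RARα RA peak within 5 kb, near the share over all peaks, 10.2%. In the other direction the single RARα RA peak had a control peak, as 19.6% of all RARα RA peaks did. How far RARα had to drop to leave the list differed between genes. At the IgG level recovered under the Cish peak, 21 fragments would have passed the cutoff in the RA pool, against 45 in control, so the summit with RA was below about 47.0% of the control level if the place was as wide as a call requires. The corresponding values were 50.4% and 52.6% for the distal Pim1 peaks and 60.5% for Jak2. For Socs1 (78.4%), Jak1 (81.9%) and the Pim1 promoter (87.4%) a call needed almost as many fragments as the control had, and a small drop would have removed them. The deposited lists skip some peak numbers, which rise along each chromosome. At 7 of these 8 places the RARα RA peaks on either side had consecutive numbers, so that no numbered peak is missing between them, but around the Tyk2 place a number was skipped, and no limit is given there.

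**Figure D3:**
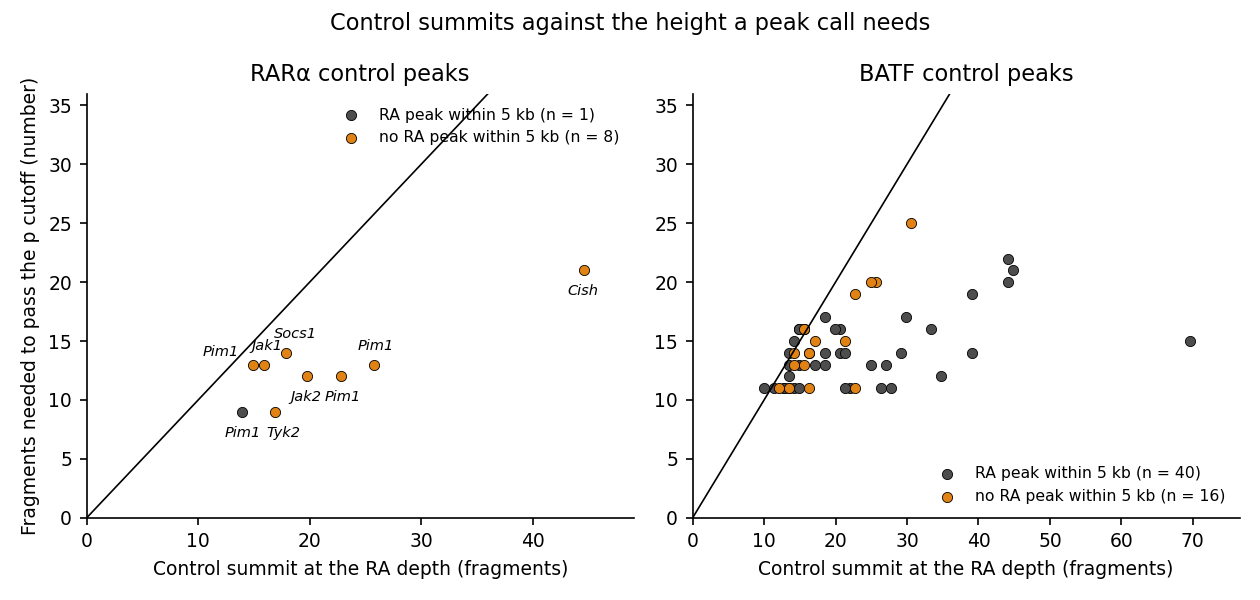
Fragments needed at the summit to pass the p-value cutoff in the RA pool (vertical axis) against the control summit scaled to the depth of the RA pool (horizontal axis, fragments), for the RARα control peaks (left, n = 9) and the BATF control peaks (right, n = 56) of the 10 genes. Points on the line would just be called again at an equal level, and the RARα peak of Cish (44.6 fragments, 21 needed) stood farthest from it among those without an RA peak. The Tyk2 point on the left gives no limit, because a peak number was skipped around that place.

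For BATF, 40 of the 56 control peaks had an RA peak within 5 kb (71.4%, 95% interval 58.5 to 81.6), against 69.9% of all control peaks. Of the 30 RA peaks 27 had a control peak within 5 kb (90.0%, 74.4 to 96.5), against 96.3%. The control peaks without an RA peak numbered 5 at Jak1, 3 at Tyk2, 2 each at Socs1, Socs3, Cish and Pim1, and 0 at Socs2, Jak2, Jak3 and Pim2. Of the 19 promoter-class control peaks 16 had an RA peak within 5 kb (84.2%, 62.4 to 94.5), against 74.3% of all promoter-class control peaks, and the other 3 were those of Cish and Tyk2. Some of the 16, at Jak1, Socs1, Socs2 and Pim2, were not overlapped by an RA peak. They were counted through an RA peak 188 to 1690 bp away that overlapped a neighbouring control peak. The 3 RA peaks without a control peak were those of Socs1 and Jak1 given above and 1 named for Socs3 at 87457 bp, nearest to Tha1 (14 fragments, fold 3.75).

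The 16 BATF control peaks that had no RA peak had a median fold of 3.95 against 5.07 for the 40 others (4.55 and 6.04 over all control peaks). With fragments scaled to the depth of the RA pool, 15 of the 16 would still have passed the cutoff, and 33 of the 40 others. Over the whole list 88.1% of the control peaks without an RA peak would have passed. The scaling thus did not set the 16 apart, and whether depth accounts for the missing RA peaks was not tested. Among the 16 the margin was mostly small, since for 13 of them a call needed more than 75% of the control level. The clearest exception was a Pim1 peak at chr17:29506247-29506500, 10136 bp from the gene in an MTC-int LTR repeat, with 32 fragments and a fold of 8.44 in control. There, 11 fragments would have been enough with RA, which is 48.4% of the control level.

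BATF height was compared with RA against control where a control peak and an RA peak overlapped. Overlapping peaks can have their summits at different positions, as at the Jak2 promoter (chr19:29253005 in control, chr19:29251785 with RA). Of the 56 control peaks 23 were overlapped by an RA peak (41.1%, 29.2 to 54.1), against 54.4% of all control peaks, and the RA peak with the most fragments was taken for each, a choice made after the data had been seen. Summit height per 1000000 fragments of the pool was lower with RA in 17 of the 23 (73.9%), against 76.7% of the 8605 overlapped control peaks of the whole list. The median ratio of RA to control was 0.804, and 0.844 over the whole list (quartiles 0.722 and 0.989). Only heights that passed the cutoff with RA enter these ratios, so low ratios at weak control peaks are missing from them. Both Pim1 promoter-class peaks and the distal Tyk2 peak had intervals below 1, with no adjustment for the 23 control peaks compared. All 3 intervals contained 0.844, the median ratio over the whole list. The ratio was 0.512 (0.290 to 0.867) for chr17:29491263-29493526, 0.588 (0.345 to 0.973) for chr17:29489160-29490762 and 0.494 (0.241 to 0.952) for the Tyk2 peak. Of all overlapped control peaks 1.62%, 6% and 1.17% had a lower ratio than these.

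The other 20 intervals included 1. The Jak1 promoter-class peak had a ratio of 0.804 (0.487 to 1.30), the Jak3 one 0.789 (0.452 to 1.35), the Socs3 one 0.782 (0.502 to 1.20) and the Socs1 one 0.704 (0.396 to 1.22). At the strongest place, near Rmi2 and named for Socs1, it was 0.833 (0.591 to 1.16), and at the intergenic Cish place 0.976 (0.646 to 1.46). The largest ratios, 1.71 for Socs2 (0.793 to 3.74) and 1.41 for Socs1 at 11252 bp (0.811 to 2.44), rested on 14 and 29 control fragments. At the IgG level under the control peak, a call with RA needed 111% of the control level at that Socs2 peak. A ratio below 1 would not have been called there at that IgG level. At that Socs1 peak a call needed 77.6%. The summit of the Socs2 RA peak, chr10:95416987, lay outside the control peak of ratio 1.71, so different positions were compared. The same RA peak was also set against a neighbouring Socs2 control peak (ratio 1.14), which did not hold that summit either. With pairs of nearest midpoints within 5 kb instead, 40 pairs could be made, and 22 of them had the lower fold with RA (55.0%, 39.8 to 69.3), against 66.9% of all pairs. Those 40 pairs held 24 different RA peaks, since several weak control peaks were paired with the same RA peak. By height, 7 of these 40 intervals excluded 1, with 4 ratios below 1 and 3 above it. The Jak3 promoter-class peak was then paired with the weaker of its RA peaks, at a ratio of 0.480 (0.242 to 0.900). The ratios above 1, 1 at Pim1 and 2 at Jak1, set a weaker control peak against a higher RA peak beside it that it did not overlap.

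**Figure D4:**
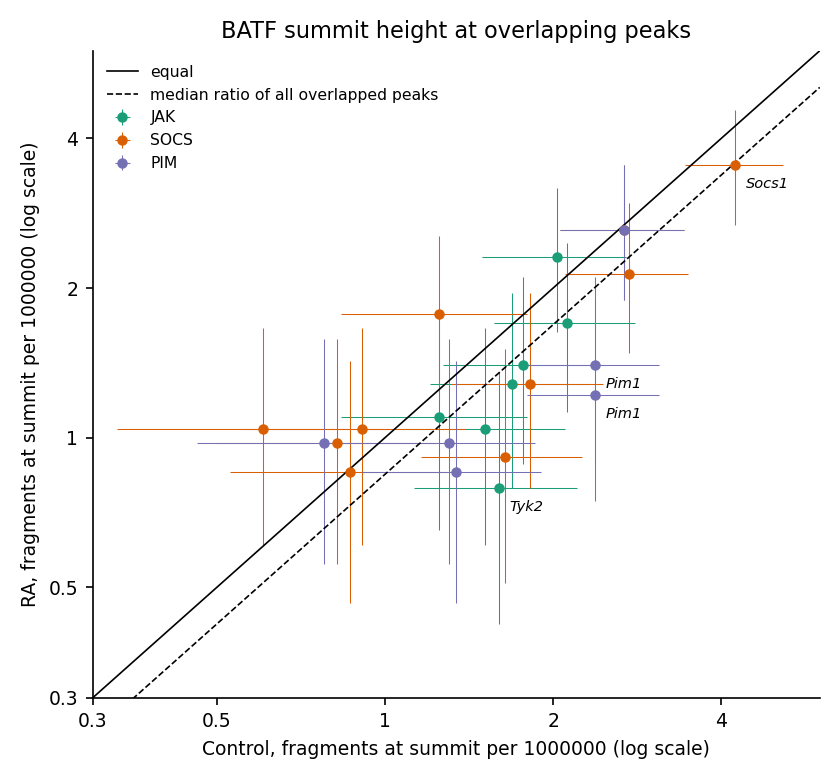
BATF fragments at the summit per 1000000 fragments of the pool in control (horizontal axis) and with RA (vertical axis), both on log scales, for the 23 control peaks of the 10 genes overlapped by an RA peak, coloured by gene group. Bars are exact Poisson 95% intervals, the solid line marks equal height and the dashed line the median ratio of all overlapped peaks, 0.844. The labelled Pim1 and Tyk2 peaks lay below both lines, but the intervals of their ratios contained 0.844.

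The wider pathway was counted in a list of 42 further genes, receptors, STATs, other inhibitors and phosphatases, and STAT target genes. All 42 had a BATF control peak, 36 a BATF RA peak, 19 a RARα control peak and 6 a RARα RA peak, against the shares of protein-coding genes given above. The median number of BATF control peaks was 4.00 in the list and 4.50 in the 10 genes. The genes with the most BATF control peaks were the neighbouring interferon receptor genes Ifnar1 (16) and Ifnar2 (14), which share peaks, and Il6st (13), the gp130 receptor chain. With RA the numbers were 3, 5 and 8.

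RARα control peaks of this list numbered 29, of which 26 had a BATF control peak within 5 kb (61.9% of all RARα control peaks) and 5 a RARα RA peak (10.2%). The 2 of highest fold lay near receptor genes. The first, at chr7:125511198-125512027 and named for Il4ra and Il21r, had a fold of 10.1 in control (39 fragments) and 6.68 with RA (32). The other, at chr16:91533087-91534413 and named for Ifnar1 and Ifngr2, had a fold of 9.73 and no RA peak within 5 kb. Ifngr1, a chain of the IFN-γ receptor, had 7 control peaks with folds from 2.37 to 7.44 and 2 RA peaks. At an intronic place among these the fold was 2.44 in control and 6.76 with RA, with 16 and 26 fragments at the summit. The fold also depends on the local IgG level, which is not given here for the genes of this list. Among the receptors, Il2ra and Il15ra shared a control peak (fold 4.51), Il2rb had 2 (4.52 and 3.84) and an RA peak elsewhere (2.78), Ifnar2 had 1 (4.12) and Il12rb2 had 1 (3.86). Il4ra had 2 further control peaks, at its promoter (fold 2.12) and between it and Il21r (3.40, also named for Il21r), and Il21r had 2 of its own (3.09 and 3.62). Among the STATs, Stat4 had 2 (folds 3.68 and 2.77) and Stat5b 1 (3.36). The inhibitors and phosphatases with a control peak were Ptpn2 (3.86 and 2.41), Ptpn6 (2.93) and Socs6 (2.77, and 2.70 with RA at another place), and Socs5 had a peak with RA alone (2.53). Of the target genes, Bcl6 (3.02), Myc (2.52), Bcl2 (2.83) and Mcl1 (2.14) had 1 control peak each and none with RA.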

How the data were processed

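RARα and BATF ChIP-seq of mouse CD8 T cells with or without RA was used, 1 pooled list per condition. The authors aligned paired-end reads of 151 bp with Bowtie2 to mm10 and called peaks with MACS 2.2.7.1 and annotated them, per the labels, the paper's methods and the file headers. The deposited pileup column is a signal that counts the fragments over the summit, scaled in BATF control alone to a step of 0.9875. The deposited fold enrichment is a ratio to the local IgG level with a constant of 1 added to both. The deposited p-value and q-value are on a −log10 scale.

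Whole fragments and the IgG level were recovered from these values. The recovered level gave the deposited p of 99.8% of BATF control peaks within 0.01 on the −log10 scale. Fragments needed for a call came from the Poisson tail at that level, scaled to the RA depth. Peaks were counted as shared within 5 kb, after the study's methods. Gene positions and the nearest protein-coding gene came from a RefSeq table for GRCm38.p6, and 98.9% to 99.2% of names matched. The counting of nearby and overlapping peaks and the coverage of the ratio interval were tested on simulated data. The simulated counts were neither summits nor selected by a cutoff, and the other steps were not tested in this way. Values were computed in Python 3.11.15 with scipy 1.17.1, pandas 2.3.3 and numpy 2.4.6, and drawn with matplotlib 3.10.9.

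The 10 genes, the list of 42 and the alternatives were chosen with earlier results of these data known. Named with values were every RARα peak, every promoter-class BATF peak and the highest BATF peak of each gene and list, and in the list of 42 the genes with a RARα peak and the 3 with the most BATF control peaks. Other peaks named were picked after their values were seen. Sequences and motifs were not analysed here. Peak numbers skip 121, 130, 416 and 257 values in the RARα control, RARα RA, BATF control and BATF RA lists, in the last next to the distal Socs1 peak, and peaks under those numbers were not analysed here.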

Additional observations from a re-analysis of the deposited data

How the results depend on the processing

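No paired analysis was possible because each condition has 1 pooled list. Of 36 alternative values for the main results, 21 stayed within 1.5 times the reported count or within its interval. A minimum fold of 5 left 0 of 9 RARα control, 0 of 1 RARα RA, 24 of 56 BATF control and 10 of 30 BATF RA peaks. Peaks within 10 kb of the gene numbered 2, 0, 35 and 17, and all of those 17 BATF RA peaks had a control peak (100%). The share of BATF control peaks with an RA peak was 41.1% with at least 1 bp of overlap (54.4% over all control peaks), 51.8% within 1 kb and 54.2% at a fold of 5 or more in both lists. Among overlapping pairs 69.6% had the lower fold with RA, also with the RA peak of most fragments, and the latter gave 73.9% by depth-scaled height. A q-value of at most 0.05 kept 6 of the 9 RARα control peaks and a p-value of at most 1e-05 kept 7. For the limits on fold, distance, q-value and p-value, no share over all peaks is given here. Whether the 10 genes differ from the whole lists at these limits was not tested. Depth limits the BATF comparison, since the RA pool was shallower. The summits held 14 to 98 fragments in BATF control.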
